A study of Mus musculus with 9 samples.

Results

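The genes described here encode the core of the SIN3-HDAC co-repressor, together with the Sap30 family member Sap30l and with Sap30bp, whose protein is named as a partner of SAP30. They were taken by gene symbol from the deposited testis expression table, which yielded 10 genes (Sap30, Sap30l, Sap30bp, Sin3a, Sin3b, Hdac1, Hdac2, Sap18, Sap130 and Suds3) of the 38674 listed. The set was chosen by the measured difference of Sap30bp between Pfn3-/- and Pfn3+/+ testes, and Sap30 by its place among the genes the study singled out, while the other 8 were added as known partners. The values of that comparison are therefore given as a description, without a test.

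The study asked what loss of Profilin 3, an actin-binding protein of developing spermatids, does to gene expression in the testis. RNA came from the testes of male C57BL/6 mice, freed of the tunica albuginea, in 3 genotypes with 3 animals each: Pfn3+/+ (WT), Pfn3+/- (Het) and Pfn3-/- (KO). Several Pfn3 deletion alleles had been made with CRISPR/Cas9 in zygotes and backcrossed to C57BL/6. The sample labels do not say which allele these animals carried, nor their age. The labels give no further transgene or treatment. QuantSeq libraries were sequenced, in which each read marks the 3′ end of a polyadenylated transcript.

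SIN3 proteins are scaffolds without DNA-binding activity of their own. Sequence-specific repressors bind their paired amphipathic helix domains, and the scaffold brings along histone deacetylases, which remove acetyl groups from histone tails and so favour closed chromatin. SAP30, SAP130, SUDS3 and SAP18 are subunits that stabilise this assembly or link it to further partners, and SAP18 also belongs to a complex on spliced mRNA. In the testis the SIN3 complex is known for its roles in germ cells and in the somatic Sertoli cells.

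Values are normalized counts, meaning counts per gene divided by 1 size factor per animal. As each transcript gives reads at its 3′ end only, they are not divided by gene length. A count of 3 reads corresponded to 2.58 to 3.71 normalized counts and was taken as the limit of detection, which covers counting error only. Fold changes and standard errors (SE) are from limma on log2(normalized count + 1), a scale on which the fold change of a gene at low counts depends on the 1 that is added and animals listed at 0 weigh heavily. Genes were tested where at least 3 of the animals compared reached 10 normalized counts, and a gene was called when its Benjamini-Hochberg adjusted p was under 0.05 and its log2 fold change exceeded 1.5 up or down. Separate animals are implied by the sample names, but litters are not given.

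Reads on genes numbered 3375546 to 4287335 per animal. Pfn3 itself was still counted in KO, with 74.7 to 279 normalized counts against 373 to 592 in WT, and since reads at the 3′ end can lie outside a deletion this does not check the labels. The labelled tissue held its markers: the summed elongating spermatid genes (Tnp1, Tnp2, Prm1 and Prm2) reached 123388 to 249362, and 4 epididymis markers summed to 8.69 at most, with 2 of them at 0 in all animals. WT replicate 1 and Het replicate 1 stood apart from the others, with 13.4% and 9.14% of 14865 genes more than 4-fold away from the median of the remaining animals, against 3.52% to 5.45% in the other 7. The summed spermatocyte markers (Sycp1, Sycp3, Piwil1, Tex101 and Ldhc) were 6567 and 8815 in these animals and 30763 to 41973 in the others. No marker list held a gene called by limma in any comparison. In RNA from a whole organ, fewer cells of a type and less RNA per cell cannot be told apart.

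Upstream sequence was looked at for what the genes share. RefSeq (GRCm38.p6) promoter windows, from 250 bases before to 50 after the start, were matched for 8 of the 10 genes in 9 windows. The hexamer GGGCGG, known as a GC box, was found on either strand in 7 of these genes and in 35.7% of all 32851 windows. CCGGAAG, a core bound by ETS family factors, occurred in Sap30bp and Suds3 only, against 8.86% of all windows. CCAAT was present in 4 windows, from 3 genes (37.4% of all windows), and TATAAA in 2 (13.6%), while CACGTG (7.15%) and TGACGTCA (1.79%) occurred in none. The first 2 lines below show the CCGGAAG sites (capitals) with 10 bases on each side, 61 bases before the RefSeq start of Sap30bp (chr11:115933588-115933614, plus strand) and 17 bases before that of Suds3 (chr5:117115994-117116020, minus strand). GENCODE places the starts of both genes further upstream, so that both sites lie inside the genes as GENCODE gives them, the Sap30bp site in the 5′ untranslated region of 1 transcript. The third gives the 250 bases before the start of Sap30 (chr8:57487861-57488110, minus strand), as the subunit that names the family, with the GC box in capitals.
Sap30bp: ctcctgggatCCGGAAGaagttggttt
Suds3: agcccacgacCCGGAAGtagccggctg
Sap30: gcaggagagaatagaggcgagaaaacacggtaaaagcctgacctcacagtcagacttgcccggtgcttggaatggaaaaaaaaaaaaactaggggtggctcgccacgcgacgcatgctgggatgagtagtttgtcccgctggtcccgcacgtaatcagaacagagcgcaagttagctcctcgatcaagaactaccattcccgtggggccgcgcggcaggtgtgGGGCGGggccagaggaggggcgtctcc
A match is a description of the letters in these windows, not of a bound site. Of the Het animals, replicate 1 was the lowest and replicate 2 the highest in Suds3, as in Sap30bp. This order is not particular to these genes. Sap130 had it too, with 18.0, 142 and 20.1 normalized counts in Het replicates 1, 2 and 3. So did Acin1 and Gps2 of the wider list described below. WT and KO overlapped for Suds3 and not for Sap30bp. Whether the 2 genes share a pattern was not tested.

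Sap30bp, whose protein binds SAP30 and is also found with the splicing machinery, was the gene with the clearest separation of WT and KO. It lies on the plus strand at chr11:115933282-115966725 (GRCm38, GENCODE, as for all gene positions given here). The WT animals had 70.6, 65.6 and 66.6 normalized counts, the Het animals 2.83, 51.2 and 4.23, and the KO animals 7.73, 5.80 and 6.26. All 3 WT animals were high and all 3 KO animals low, with no overlap, while the Het animals were split. Het replicate 2 lay near the WT level. Het replicates 1 and 3 were at 3 and 4 reads, against 9, 6 and 7 reads in the KO animals. These counts are close to the detection limit of 3 reads, and the order of Het and KO among them was not tested. The means were 67.6 ± 2.63 (SD, n = 3) in WT and 6.60 ± 1.01 (SD, n = 3) in KO, a ratio of 10.2, and KO differed from WT by a log2 fold change of −3.18 (SE 0.27). Sap30bp alone of the 10 genes was past the thresholds in KO against WT, as were 0.0352% of 14223 genes, 0.0281% as lower in KO. Since this comparison chose the gene, this is no test of it and nothing is read from the share. In other settings it was not past the thresholds with a pseudocount of 0.5, without the filter or with all 9 animals in 1 fit. Nor was it past them with the replicate number as a block or with any KO animal left out. With a KO animal left out the log2 fold change was −3.29 to −3.11. With any WT animal left out too few reached 10 normalized counts.

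Between Het and WT, Sap30bp had a log2 fold change of −2.76 (SE 0.99, 95% interval −5.16 to −0.35) and was not called (limma adjusted p = 0.779, Benjamini-Hochberg over 14216 genes). The WT animals are those of the comparison that chose the gene, and it passed the filter through their high values. Nothing is therefore read from this interval or p. The Het animals ranged over 18.1-fold, so the mean of 19.4 ± 27.5 (SD, n = 3) describes none of them. Without Het replicate 2 the log2 fold change was −3.94, and without Het replicate 1 it was −2.05. On recovered reads DESeq2 gave −1.79 and edgeR −1.76. KO against Het was left out by the filter, as only Het replicate 2 reached 10 normalized counts. Without the filter the log2 fold change was −0.43 (SE 0.997, limma adjusted p = 0.959), and with DESeq2 it was −1.57 (SE 1.204), neither of them called.

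The summed elongating spermatid markers were 179063, 214894 and 213617 in Het replicates 1, 2 and 3. Het replicate 1, low in Sap30bp, had the lowest sum, while replicate 3, also low in Sap30bp, had nearly the sum of replicate 2. In KO the marker sum was 123388 to 199672, below the 233289 to 249362 of WT. Summed round spermatid markers (Acrv1, Spaca1, Spaca4, Tssk3 and Catsper3) were also lower, at 2304 to 3647 in KO against 4015 to 5277 in WT. The spermatocyte sum went the other way, at 35191 to 40686.5 in KO against 6566.9 to 33230.5 in WT. The part of any of these cells in the Sap30bp values was not tested.

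Sap30bp starts next to Recql5, a DNA helicase gene on the opposite strand, and the annotated genes overlap by 196 bases at their starts, while their 3′ ends, where the reads arise, are 74130 bases apart. Recql5 had 126, 53.1 and 57.0 normalized counts in WT, 41.6, 71.7 and 98.4 in Het and 49.8, 64.8 and 54.5 in KO. Its genotypes overlapped and it did not follow Sap30bp, with a log2 fold change of −0.37 (SE 0.38) in KO against WT and a limma adjusted p of 0.705. The antisense gene Sap30bpos was listed at 0 in all animals. None of the 50-base stretches in the last 500 bases of the Sap30bp transcripts occurred in another gene's transcripts.

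The genes whose profile over the 9 animals was most like that of Sap30bp were taken as those with the smallest root mean square difference of centred log2 values, among 14864 genes. They were Copa (0.355), a COPI coat subunit of Golgi vesicles, Chaf1a (0.451), a histone chaperone subunit, Ly6e (0.453), a membrane-anchored protein, Slc25a36 (0.619), a mitochondrial carrier, and 4930415O20Rik (0.642). Copa had 214, 365 and 448 normalized counts in WT, 20.8, 401 and 27.5 in Het and 47.2, 30.0 and 36.6 in KO. It thus had the same high Het animal, replicate 2, as Sap30bp. All 9 animals are shared between these profiles, so the likeness is a description.

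**Figure D1:**
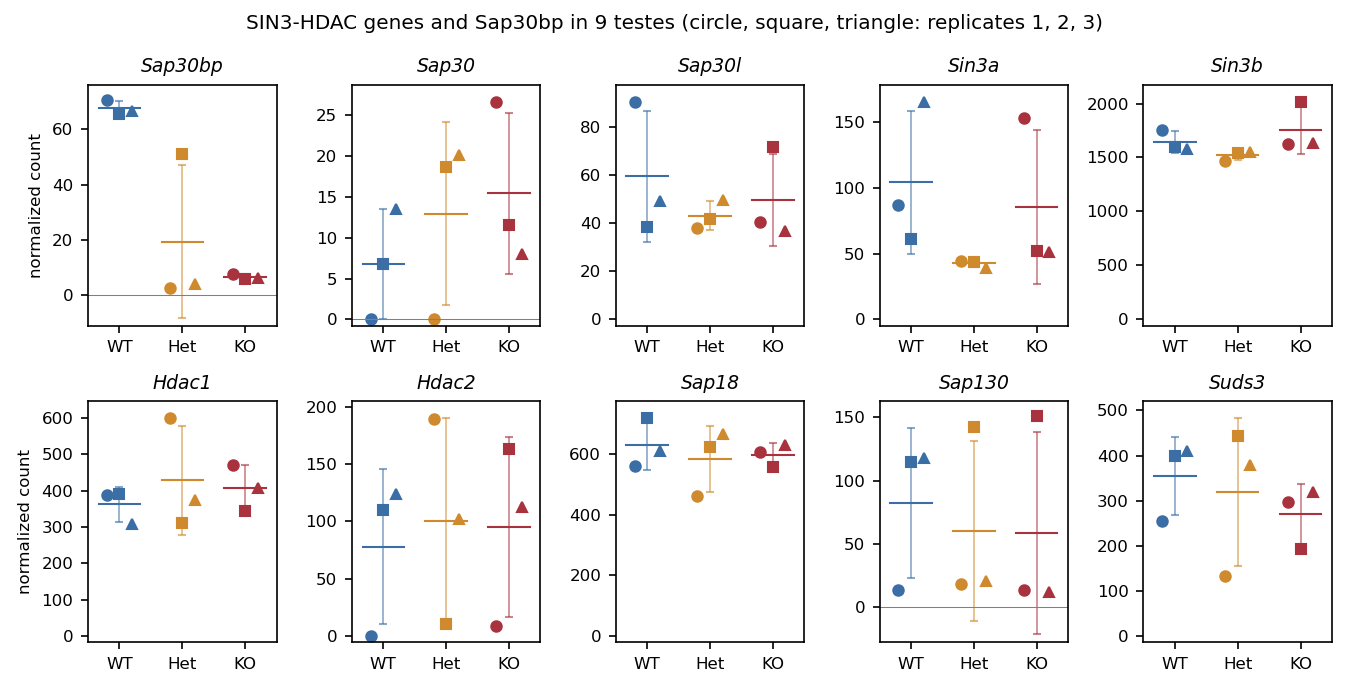
Normalized counts of the 10 genes (1 panel each, own linear y axis) in WT, Het and KO testes. Circles, squares and triangles are replicates 1, 2 and 3, and lines and bars are the mean ± SD of 3 animals. Sap30bp is near 67.6 in WT and 6.60 in KO with the Het animals split, Sin3a and Sin3b are lowest in Het, and Hdac2 and Sap130 fall into high and low animals within every genotype.

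Sap30, a subunit that helps to hold HDAC1 and SIN3A together, was close to the detection limit. It lies on the minus strand at chr8:57482707-57487860. The WT animals had 0, 6.75 and 13.5 normalized counts, the Het animals 0, 18.6 and 20.1, and the KO animals 26.6, 11.6 and 8.04. WT replicate 1 and Het replicate 1 were listed at 0, which allows up to 3.71 and 2.83 normalized counts, and of the remaining animals both Het ones were above both WT ones, while the KO animals overlapped with each. KO differed from WT by a log2 fold change of 1.60 (SE 1.10), and by 0.47 without WT replicate 1. These 2 animals are the ones that stood apart in the table as a whole and had the low spermatocyte marker sums; the part of either in the Sap30 values was not tested. Between Het and WT it was 0.63 (95% interval −3.30 to 4.55, limma adjusted p = 0.912), and between KO and Het 0.98 (95% interval −2.12 to 4.07, limma adjusted p = 0.973), against 0.25 with DESeq2. With a pseudocount of 5 the difference between KO and WT was 0.89. The study reported Sap30 as downregulated in KO, with a check by quantitative PCR. Here the KO mean, 15.4, was above the WT mean, 6.76, with overlapping animals.

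The 5 profiles nearest to that of Sap30 belonged to Cnga4 (0.36), Srebf1 (0.389), AC155255.2 (0.418), Ces1a (0.436) and Gip (0.49), the value being again the root mean square difference. Srebf1, a regulator of lipid synthesis genes, had 0, 7.72 and 13.5 normalized counts in WT, 0, 20.5 and 12.7 in Het and 7.15 to 12.02 in KO. Each of the 5 was listed at 0 in WT replicate 1 and in Het replicate 1, like Sap30. This follows from their choice by likeness to Sap30 and is a description only.

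Sap30l, the paralog of Sap30 with a similar place in the complex, was the more abundant of the 2. It lies on the plus strand at chr11:57801637-57810217. It had 90.4, 38.6 and 49.2 normalized counts in WT, 37.8, 41.9 and 49.7 in Het and 40.4, 71.6 and 36.6 in KO. WT replicate 1 and KO replicate 2 were the high animals and the genotypes overlapped. Sap30l took 60.3% to 100% of the summed counts of the 2 genes (median 82.0%), the share being 100% in the animals where Sap30 was listed at 0. Its log2 fold change was −0.23 (SE 0.42) in KO against WT, −0.37 (95% interval −1.25 to 0.52, limma adjusted p = 0.789) in Het against WT and 0.14 (95% interval −0.61 to 0.89, limma adjusted p = 0.983) in KO against Het. The high value of WT replicate 1 carried part of this: without that animal KO differed from WT by 0.12.

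The scaffold genes differed in level and in spread. Sin3a lies at chr9:57072040-57128366 and Sin3b at chr8:72723285-72758201, both on the plus strand. Sin3a had 86.7, 60.8 and 165 normalized counts in WT, 44.4, 43.8 and 39.2 in Het and 153, 52.2 and 50.9 in KO. All 3 Het animals were below every WT and every KO animal, whereas WT replicate 3 and KO replicate 1 each lay well above the rest of their group. Sin3b had 1759, 1598 and 1576 in WT, 1467, 1538 and 1551 in Het and 1624, 2015 and 1636 in KO. Here too the Het animals were the lowest, without overlap with WT or KO, but the gap to the nearest WT animal was small beside the range within KO.

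For Sin3a the log2 fold change in Het against WT was −1.15 (SE 0.39, 95% interval −2.10 to −0.21, limma adjusted p = 0.779), which was not called, and −0.76 without WT replicate 3. In KO against Het it was 0.79 (SE 0.45, 95% interval −0.29 to 1.88, limma adjusted p = 0.973), and 0.28 without KO replicate 1. KO differed from WT by −0.36 (SE 0.56), and by 0.03 without WT replicate 3. For Sin3b these values were −0.11 (95% interval −0.45 to 0.22, limma adjusted p = 0.812) in Het against WT, 0.20 (95% interval −0.12 to 0.53, limma adjusted p = 0.973) in KO against Het and 0.09 (SE 0.16) in KO against WT. Sin3b held 90.5% to 97.5% of the summed 3′ end counts of the 2 scaffolds (median 97.0%).

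Part of the Sin3a locus is covered on the other strand by the non-coding genes Man2c1os, with 0 to 6.75 normalized counts, and 2700012I20Rik, with 23.6 to 54.5. Man2c1os shares 5.17% of the 50-base stretches of the Sin3a 3′ ends. Whether the counting used strand is not stated in the sources used here, so reads of overlapping genes cannot be told apart.

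The deacetylase genes behaved differently from each other. Hdac1 (chr4:129516104-129542713, minus strand) and Hdac2 (chr10:36974544-37001889, plus strand) encode closely related class I enzymes that can replace each other in the complex. Hdac1 had 388, 392 and 307 normalized counts in WT, 599, 312 and 374 in Het and 470, 344 and 408 in KO. Het replicate 1 was the highest and the genotypes overlapped. Hdac2 had 0, 110 and 124 in WT, 189, 10.2 and 102 in Het and 8.59, 163 and 113 in KO. In each genotype 1 animal was at or below 10.2 and the other 2 were at or above 101.6, with no animal in between. The 3′ end of Marcksl1 lies 119 bases from that of Hdac1 on the opposite strand, and Marcksl1 had 134 to 254 normalized counts.

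For Hdac1 the log2 fold change was 0.17 (SE 0.21) in KO against WT, 0.19 (95% interval −0.51 to 0.90, limma adjusted p = 0.841) in Het against WT and −0.03 (95% interval −0.70 to 0.64, limma adjusted p = 0.998) in KO against Het. For Hdac2 it was 1.23 (SE 2.12) in KO against WT, which turned to −1.06 without WT replicate 1 and was 0.29 with DESeq2 on the recovered reads. In Het against WT DESeq2 gave 0.36. Its intervals were wide, from −3.81 to 6.47 around 1.33 in Het against WT (limma adjusted p = 0.850) and from −3.59 to 3.40 around −0.10 in KO against Het (limma adjusted p = 0.998). Hdac1 held 67.9% to 100% of the summed counts of the pair (median 78.4%), the highest shares being those of the 3 animals low in Hdac2.

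**Figure D2:**
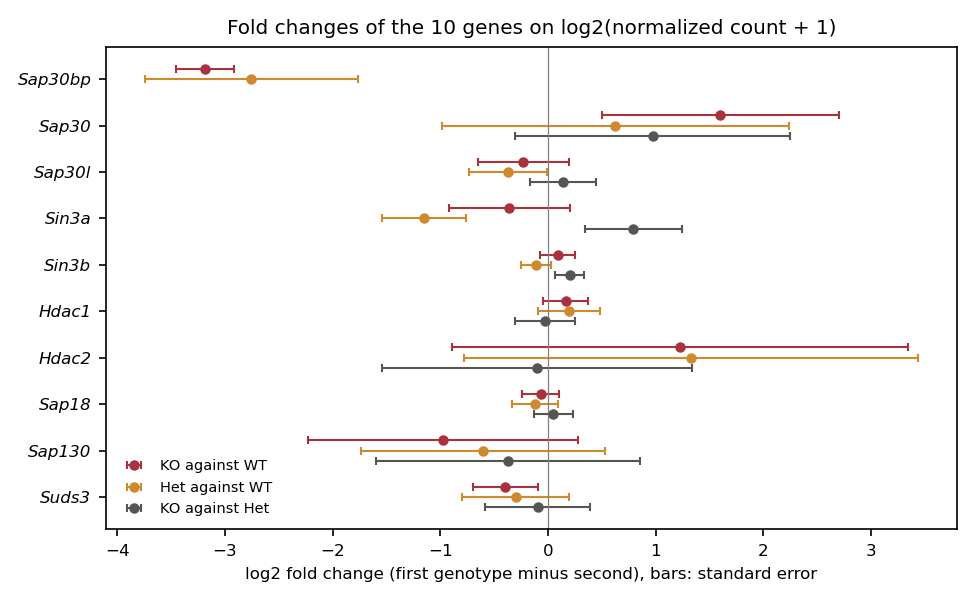
Log2 fold changes (x axis, first genotype minus second, on log2 of normalized count + 1) of the 10 genes (y axis) in the 3 comparisons between genotypes, with bars of 1 standard error. Sap30bp stands at −3.18 in KO against WT and −2.76 in Het against WT, with no value for KO against Het because it was not tested, and the widest bars are those of Hdac2.

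Of the further subunits, Sap130, a large protein that binds SIN3 and recruits other factors, showed high and low animals like Hdac2, but only partly the same ones. It is on chromosome 18 and had 13.6, 115 and 118 normalized counts in WT, 18.0, 142 and 20.1 in Het and 12.9, 151 and 11.6 in KO. WT replicates 2 and 3, Het replicate 2 and KO replicate 2 were high, and the other 5 animals lay between 11.6 and 20.1. The log2 fold change was −0.97 (SE 1.25) in KO against WT, −0.60 (95% interval −3.35 to 2.15, limma adjusted p = 0.874) in Het against WT and −0.37 (95% interval −3.34 to 2.60, limma adjusted p = 0.993) in KO against Het. Single animals moved it widely, from −2.15 to −0.35 in KO against WT when each was left out in turn, and DESeq2 gave −0.48 in KO against WT and −0.05 in KO against Het.

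Suds3, needed for the deacetylase activity of the complex, lies on the minus strand at chr5:117091680-117116113 and had 254, 399 and 410 normalized counts in WT, 132, 443 and 379 in Het and 297, 193 and 319 in KO. Het replicate 1 was the lowest and the genotypes overlapped. The log2 fold change was −0.39 (SE 0.30) in KO against WT, −0.30 (95% interval −1.52 to 0.92, limma adjusted p = 0.858) in Het against WT and −0.09 (95% interval −1.29 to 1.10, limma adjusted p = 0.997) in KO against Het, where DESeq2 gave −0.15 and −0.25 for the last 2. The antisense gene 9530046B11Rik overlaps its start by 896 bases and had 1.93 to 13.6 normalized counts.

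Sap18, a small ubiquitin-like protein of both the SIN3 and the splicing-associated complex, lies on the plus strand at chr14:57798180-57806638. It had 560, 717 and 609 normalized counts in WT, 461, 623 and 667 in Het and 607, 557 and 628 in KO, and the genotypes overlapped throughout. Its log2 fold change was −0.07 (SE 0.18) in KO against WT, −0.12 (95% interval −0.64 to 0.41, limma adjusted p = 0.871) in Het against WT and 0.05 (95% interval −0.39 to 0.49, limma adjusted p = 0.996) in KO against Het. Its level is uncertain, because 52.9% of the 50-base stretches of its 3′ ends occur in transcripts of other genes, mostly of the copy Sap18b, which had 454 to 571 normalized counts. Sap18 took 47.1% to 56.9% of the summed counts of the 2 genes. Ska3 overlaps the last 78 bases of Sap18 on the other strand and had 16.1 to 48.7 normalized counts.

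Set side by side over the comparisons, 1 of the 10 genes had groups that did not overlap in KO against WT (Sap30bp), beside 19.9% of all genes tested. In Het against WT there were 3 (Sap30bp, Sin3a and Sin3b), beside 13.3% of all genes, and in KO against Het 2 of 9 tested (Sin3a and Sin3b), beside 10% of all genes. None of the 10 was called by limma in Het against WT (background 0.0%) and none of 9 in KO against Het (background 0.0558%). DESeq2 on the recovered reads also called none in these comparisons, beside 0.206% of the genes it tested for Het against WT and 0.269% for KO against Het, and edgeR called none, beside 0.0% and 0.0488%. An unadjusted limma p under 0.05 was reached by 2 genes in Het against WT (Sap30bp and Sin3a), beside 3.34% of all genes, and by 0 in KO against Het, beside 3.56%. The median log2 fold change over the genes tested was −0.15 in KO against WT, −0.21 in Het against WT and 0.05 in KO against Het, beside 0.02, 0.01 and 0.00 over all genes. Het against WT shares the WT animals, and KO against Het the KO animals, with the comparison that chose Sap30bp.

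The spread between animals of the same genotype set how much these comparisons could resolve. The widest range within a genotype on the log2(normalized count + 1) scale was 6.96 for Hdac2, a range that 0.653% of 14865 genes reached, 4.40 for Sap30, 3.77 for Sap30bp and 3.59 for Sap130. It was 0.31 for Sin3b and 0.53 for Sap18, which 98.9% and 90.9% of genes reached or exceeded. More than 4-fold within a genotype was seen for 4 of the 10 genes (40.0%), beside 27.4% of all genes. The animals on the low side of their genotype were partly shared between these genes. WT replicate 1 was low in Hdac2, Sap30 and Sap130, and Het replicate 1 in Sap30bp, Sap30 and Sap130. Het replicate 3 was low in Sap30bp and Sap130, and KO replicate 1 in Hdac2 and Sap130. By contrast, Het replicate 2 was low only in Hdac2, and KO replicate 3 was low in Sap130 but not in Hdac2.

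**Figure D3:**
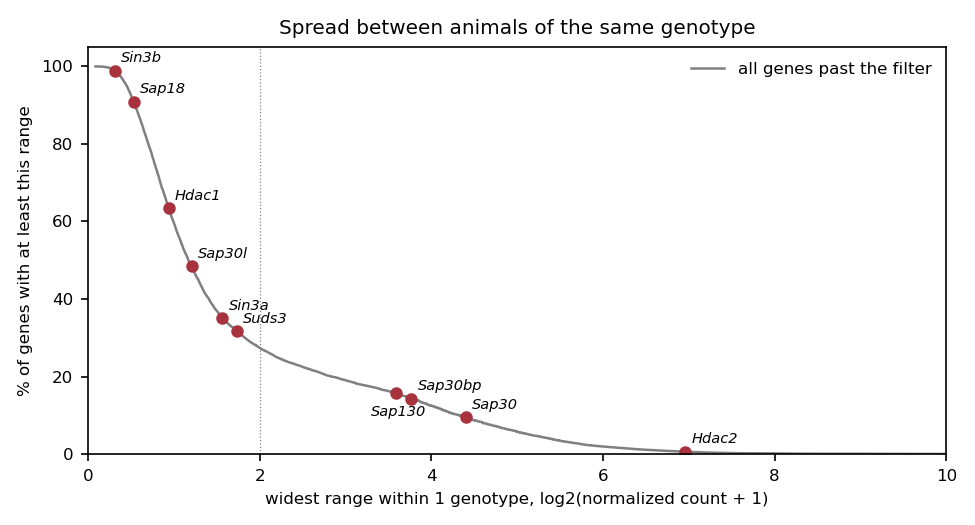
Share of 14865 genes (y axis, percent) whose widest range within 1 genotype is at least the value on the x axis (log2 of normalized count + 1), with the 10 genes marked on the curve and a dotted line at a 4-fold range. Sin3b and Sap18 lie at the narrow end, and Sap130, Sap30bp, Sap30 and Hdac2 lie beyond the line.

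A wider list of 59 genes was drawn up from known biology: other SIN3 subunits, repressors that recruit SIN3, the other histone deacetylases, the other complexes of class I deacetylases, and RNA-processing partners of Sap18 and Sap30bp. The table held 58 of them. No gene of this list was called in any comparison, of 53 tested in KO against WT, 52 in Het against WT and 53 in KO against Het, by limma, DESeq2 or edgeR. In KO against WT DESeq2 called 0.531% and edgeR 0.0352% of all the genes they tested. An unadjusted limma p under 0.05 was reached by 5, 2 and 1 of them, beside 8.07%, 3.34% and 3.56% of all genes. In KO against WT 28 of the 53 had a higher and 25 a lower mean log2 value, with a median of 0.01. The groups did not overlap for 11, 4 and 5 genes in the 3 comparisons, beside 19.9%, 13.3% and 10% of all genes. Medians were 0.03 in Het against WT and −0.04 in KO against Het.

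By role, the 13 tested other subunits of the SIN3 complex had a median log2 fold change of 0.16 in KO against WT. The median was 0.16 for the 10 recruiting repressors and −0.59 for the 7 other deacetylases. It was −0.04 for the 19 members of other class I complexes and 0.18 for the 4 RNA-processing partners. Of the 7 other deacetylases, 5 were lower and 2 higher in KO, from −1.56 (Hdac7, SE 1.38) to 0.14 (Hdac3, SE 0.265), and none was called. The 5 genes with an unadjusted limma p under 0.05 in KO against WT were all lower in KO than in WT without overlap. Nothing is read from this, as that p picked them. The share lower or without overlap among all genes under 0.05 was not taken. The 5 are named after their values were seen: Hdac9, a class IIa deacetylase, Chd3, a helicase of the NuRD complex, Mbd2, its methyl-CpG reader, Gps2, a subunit of the NCoR complex, and Acin1, the partner of Sap18 on spliced mRNA. Acin1 had 914, 803 and 768 normalized counts in WT, 433, 893 and 474 in Het and 565, 430 and 386 in KO. Its log2 fold change was −0.86 (SE 0.21, limma adjusted p = 0.583), and Het replicate 2 was again the Het animal at the WT level. The other RNA-processing partners Rnps1, Pnn and Rbm17 had log2 fold changes of 0.21, 0.22 and 0.16, with overlapping genotypes.

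None of the largest changes of the wider list in KO against WT passed the test. On the low side, Rbbp4, a histone-binding subunit shared by SIN3 and NuRD, had 22.3, 189 and 218 normalized counts in WT, 368, 167 and 7.41 in Het and 97.1, 6.77 and 4.47 in KO. Low animals occurred in every genotype, and the log2 fold change was −2.62 (SE 1.36, limma adjusted p = 0.616). Hdac7 followed at −1.56 (SE 1.38, limma adjusted p = 0.674), −0.41 with DESeq2, and 0.11 with 1 KO animal left out, replicate 1, in which it was listed at 0. Gps2 had 2232, 1267 and 1482 in WT, 522, 1465 and 696 in Het and 959, 644 and 646 in KO, a log2 fold change of −1.13 (SE 0.28, limma adjusted p = 0.604). Every KO animal was below every WT animal, and of the Het animals only replicate 2 was at the WT level.

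On the high side stood Fam60a, the SIN3 subunit also called Sinhcaf, with a log2 fold change of 1.5 (SE 1.05, limma adjusted p = 0.645). It was listed at 0 in WT replicate 1 and had 10.6 and 11.6 normalized counts in the other WT animals against 12.5 to 15.5 in KO, and the log2 fold change was 0.30 without WT replicate 1 and 0.90 with DESeq2. Rcor2, a CoREST subunit, was at 1.45 (SE 1.90, limma adjusted p = 0.761), with 28.5, 0 and 0 in WT and 20.6, 0 and 26.8 in KO, and at 0.75 with DESeq2. Tbl1xr1, an exchange factor of the NCoR complex, was at 1.26 (SE 1.21, limma adjusted p = 0.690), with 4.95, 145 and 117 in WT and 109, 125 and 101 in KO, at 0.33 with DESeq2 and at −0.22 without WT replicate 1.

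Also named after their values were seen, the 2 genes under 0.05 in Het against WT before adjustment were Mxd1, a MAX partner that recruits SIN3, at 0.43 (SE 0.18), and Mbd3, a NuRD subunit, at −0.75 (SE 0.30), both with a limma adjusted p of 0.779. In KO against Het it was Mxd4, another MAX partner, at 0.91 (SE 0.32, limma adjusted p = 0.973). Chd4, the main NuRD helicase, had 181, 939 and 144 normalized counts in Het against 869, 892 and 949 in WT and 734, 889 and 740 in KO. Without Het replicate 2 it was called in KO against Het, with a log2 fold change of 2.27 (limma adjusted p = 0.0266), the single call in the list when each animal was left out in turn.

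**Figure D4:**
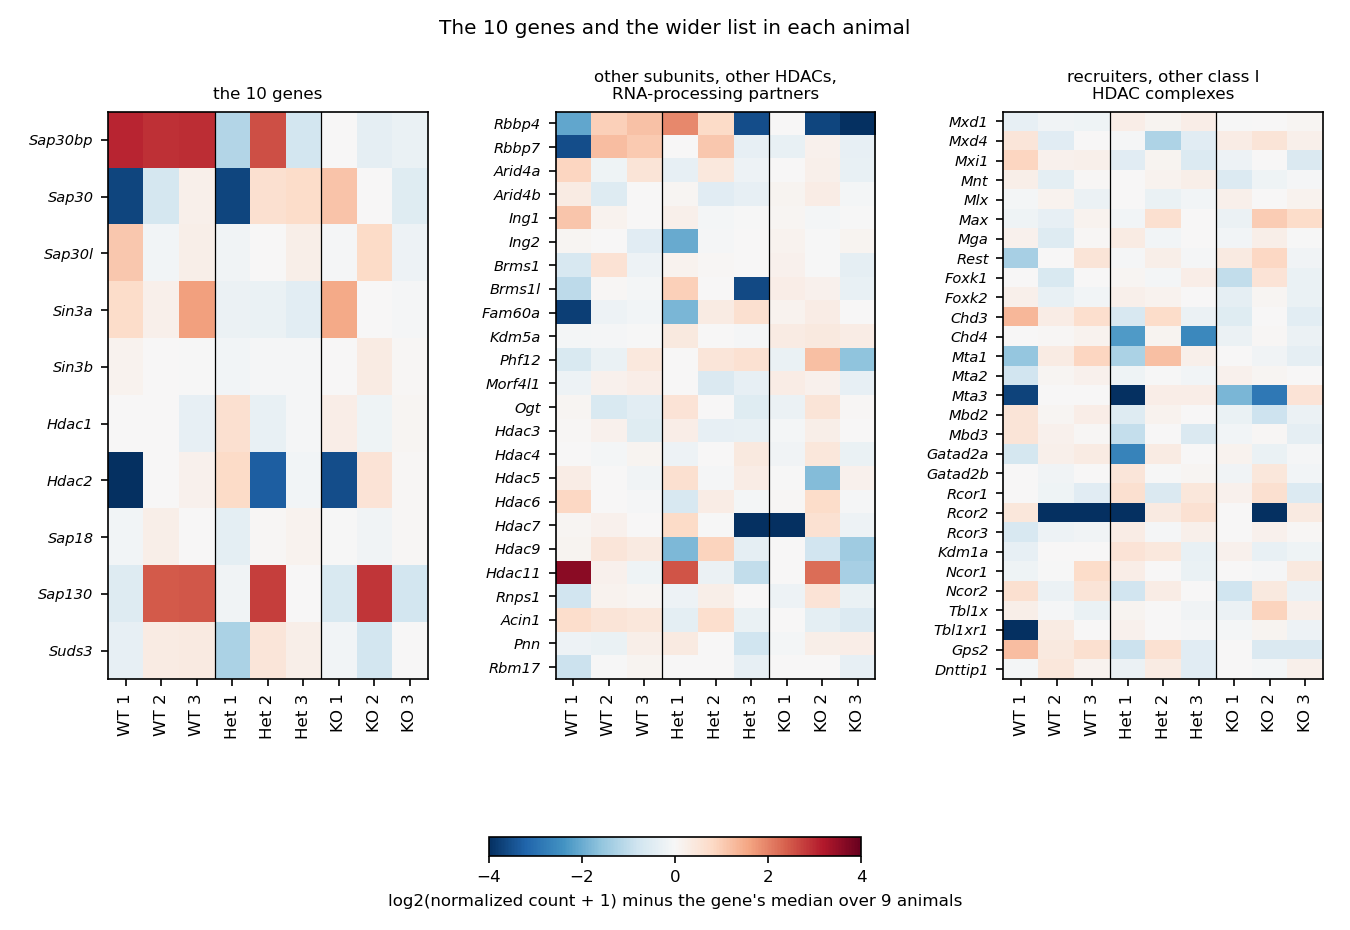
Each cell is log2(normalized count + 1) of a gene (rows) in an animal (columns) minus the gene's median over the 9 animals, from −4 (blue) to 4 (red). The left panel holds the 10 genes and the other panels the genes of the wider list that reached 10 normalized counts in at least 3 animals. Sap30bp is high in the 3 WT animals and Het replicate 2, and most strong deviations of the wider list sit in single animals.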

How the data were processed

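Per the labels and the study's methods, the authors extracted total testis RNA with TRIzol, made QuantSeq libraries, sequenced 50-base reads, trimmed them with Trim Galore 0.4.5, aligned them to GRCm38 with HISAT2 2.1, assembled and quantified loci with StringTie 1.3.3 and its count script, removed pseudogenes and used DESeq2. The deposited values are a signal: counts of each gene, scaled with 1 size factor for every sample. In every sample 100% of nonzero values were whole multiples of 1 step (tolerance 0.01 of a count), which recovered the counts; as StringTie derives these from coverage, they are estimates rather than tallied reads. All 10 genes are loci of the authors' merged assembly.

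limma 3.58.1 (trend) in R 4.3.3 was run on log2(value + 1) for the 6 animals of each comparison, over all genes with a value of at least 10 in 3 animals, with Benjamini-Hochberg adjustment over all of them. DESeq2 1.42.0 and edgeR 4.0.16 were run on recovered counts. Other alternatives were pseudocounts of 0.5 and 5, no filter, TMM factors, all 9 animals in 1 fit, the replicate number as a block and each animal left out. The functions were tested on simulated counts with the same spread set for every gene. That does not show how they behave with the spread between animals seen here. Python 3.11.15 handled annotation (GENCODE, GRCm38) and sequences.

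The genes, the wider list and the markers were chosen with earlier results of these data known. Named in the text are the 10 genes, Pfn3, genes of the wider list called in any comparison, its 3 largest changes each way in KO against WT, genes overlapping or ending within 5 kb of the 10, and the 5 nearest profiles of Sap30bp and Sap30. Further genes of the wider list were named after their values were seen: those with an unadjusted p under 0.05, Chd4, and the remaining RNA-processing partners. Sap18 overlaps the microRNA gene Mir3077, which was not analysed here. Between animals of the same genotype, 27.6% to 59.3% of genes with at least 20 reads in sum differed by more than 2 counting standard deviations, and all 9 were counted as separate samples.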

Additional observations from a re-analysis of the deposited data

How the results depend on the processing

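Over the whole table, the genes called in KO against WT numbered 104 with DESeq2, 3 with all 9 animals in 1 fit and 0 with the replicate number as a block, against 5; leaving out each animal gave 0 to 49. Het against WT gave 33 with DESeq2, 2 with a pseudocount of 5, 3 without the filter, 1 with TMM factors, 3 with all 9 animals and 0 to 3 with an animal left out, against 0. KO against Het gave 46 with DESeq2, 4 with all 9 animals, 0 with the block and 0 to 39 with an animal left out, against 8. Of the 10 genes, only Sap30bp was past the thresholds in KO against WT, beside 0.0352% of all genes tested. This comparison chose it, so the count is no test of it and nothing is read from it. None was past them with a pseudocount of 0.5, without the filter, with all 9 animals, with the block or with any animal left out. With a WT animal left out Sap30bp did not reach the filter. The number of genes called in the wider list stayed at 0 except in KO against Het, at 0 to 1 with an animal left out. Het against WT without both WT replicate 1 and Het replicate 1, an alternative chosen after seeing the data, turned Sap30l to 0.065, Suds3 to 0.018, Hdac1 to −0.023 and Hdac2 to −1.79 (log2 fold change). Leaving out single animals turned the direction in Het against WT of Sap30 (−0.51 to 2.08), Sap18 (−0.22 to 0.044), Suds3 (−0.63 to 0.24), Hdac1 (−0.076 to 0.39) and Hdac2 (−0.96 to 2.54), in KO against Het of Sap30 (−0.47 to 1.73), Sap30l (−0.15 to 0.32), Sap18 (−0.11 to 0.16), Sap130 (−1.54 to 0.58), Suds3 (−0.64 to 0.23), Hdac1 (−0.23 to 0.24) and Hdac2 (−1.31 to 1.18), and in KO against WT of Hdac7 (−2.60 to 0.11) and Tbl1xr1 (−0.22 to 2.08). The untested values of KO against WT also turned for Sap30l (−0.52 to 0.12), Sap18 (−0.15 to 0.03), Sin3a (−0.88 to 0.03), Sin3b (−0.01 to 0.14) and Hdac2 (−1.06 to 2.51). Sap30bp differed between KO and WT by −3.34 with DESeq2 and by −2.65 with a pseudocount of 5. The cause of these shifts was not tested. Deviations of animals of the same number correlated at −0.14 to 0.19, with 2 of 9 pairs over 0.1. The highest correlation was with a library of the same number for 6 of 9, counting Het replicate 2. That library stood at 0.188 with WT replicate 2 and equally with WT replicate 3 and KO replicate 1, so its match is a tie. These values do not settle whether the numbers pair the animals. Summing table rows per gene changed nothing, since each gene had 1 row. At this depth Sap30 sits near the detection limit. Genes with fewer than 3 of the compared animals at 10 normalized counts were left out of the main test.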
